A study of Gallus gallus with 20 samples.

Results

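Expressed long noncoding RNA genes were described in the hypothalamus and pituitary of chickens. A gene was included when the deposited table gave it the biotype lncRNA, its mean over the 20 libraries was at least 1 FPKM (reads per kilobase of listed gene length and library size, on the authors' library scaling), and it lay on a numbered chromosome other than 16, 25 and 30 to 33, or on Z. This rule took 493 of the 5504 long noncoding RNA genes in a table of 28021 genes, or 9.62% of the 5125 such genes on those chromosomes. The level itself chose the genes, so levels are given below as a description, with no test. The genes nearest to the limit were ENSGALG00000037810 at 1.0006, ENSGALG00000053592 at 1.0014 and ENSGALG00000052744 at 1.009 FPKM inside it, and ENSGALG00000049912 at 0.99968, ENSGALG00000048914 at 0.995 and ENSGALG00000052544 at 0.993 FPKM outside it.

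The birds were male Korat chickens of 10 weeks, a slow-growing line, kept in single cages with free access to commercial feed. They were taken from the low and the high end of residual feed intake (RFI), which is the feed a bird eats beyond that predicted from its weight and growth, among 200 chicks raised. The 4 groups, hypothalamus low RFI, hypothalamus high RFI, pituitary low RFI and pituitary high RFI, hold 5 libraries each by title, and every library is a pool of RNA from several birds. The design text gives 5 pools per group for the hypothalamus, but 4 pools of 2 birds of adjacent RFI rank per group for the pituitary, where 5 libraries are titled. No treatment or genetic change was applied to any group, and p-values measure the spread between pooled libraries, which is not the spread between birds.

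Long noncoding RNAs are transcribed and usually spliced like messenger RNAs but carry no long reading frame. Some are the precursors from which microRNAs are cut, some start back to back with a protein-coding gene or run antisense to it, and some act in the nucleus as scaffolds for chromatin and RNA-binding proteins. In vertebrates they are known for lower levels and narrower tissue ranges than messenger RNAs. None of the 493 genes carries a symbol in the deposited table and none matched the reference gene table, so each is given by its Ensembl identifier, with no function assigned, and positions are those of the deposited table (GRCg6a build per the submitters' processing notes).

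The depth ranged from 11418600 to 12647034 counts per hypothalamus library and from 10262777 to 11960994 per pituitary library, of which the 493 genes took 0.651 to 0.718% and 0.531 to 0.660%. Between 481 and 493 of them had at least 1 count in any one library. The tissue labels were checked on marker genes. Growth hormone (GH) stood at 0 to 10.8 FPKM in the hypothalamus libraries and at 6982 to 66664 FPKM in the pituitary libraries, and all 11 anterior pituitary markers that were found were called higher in pituitary. Of 13 markers of hypothalamic neurons 7 were called higher in hypothalamus and 2 higher in pituitary, among them the peptide gene CARTPT at 462 to 2328 FPKM there, and their summed levels overlapped (522 to 2266 FPKM in hypothalamus libraries, 590 to 2432 FPKM in pituitary libraries). All 6 oligodendrocyte markers found were called higher in hypothalamus. Their summed level was 7579 to 19769 FPKM there, against 115 to 3466 FPKM in 9 pituitary libraries and 7282 FPKM in pituitary low RFI library 1. Hypothalamus low RFI library 2 held 36376 FPKM of pineal and choroid plexus markers, where the other hypothalamus libraries held at most 136 FPKM. Pituitary high RFI library 4 led the cerebellum and midbrain markers with 583 FPKM, pituitary low RFI library 2 the sensory neuron markers with 223 FPKM, and pituitary low RFI library 4 the other epithelium markers with 448 FPKM. These 5 libraries stand apart, and many, but not all, of the results in which they are far from the others are also given without them. They were chosen with earlier results known, and other libraries were also high for a list. Pituitary high RFI library 2 led the fibroblast and meninges markers with 3365 FPKM (next 1607 FPKM). The 3466 FPKM of oligodendrocyte markers were in pituitary high RFI library 1.

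Most of these genes were weakly expressed and a few were abundant. The median of the 493 means was 2.69 FPKM, with quartiles at 1.60 and 6.33 FPKM, beside a median of 11.03 FPKM for the 12270 protein-coding genes that meet the same level and chromosome rule. A mean of at least 10 FPKM was reached by 77 of the 493 genes (15.6%, against 53.8% of the protein-coding genes), at least 50 FPKM by 11 and at least 100 FPKM by 6 (1.22% against 4.16%). They lay on 27 chromosomes, 67 on chromosome 1, 51 on chromosome 3, 39 on chromosome 2 and 35 on Z. Their listed transcript length had a median of 1480 bases, where it was 1604.5 bases for the 4632 long noncoding RNA genes under the level and 2426 bases for the protein-coding genes. The genomic span had a median of 5533 bases, where long noncoding RNA genes under the level spanned 11086.5 bases.

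The most abundant was ENSGALG00000048488 on chromosome 6 (3358158 to 3361503), at 287 to 548 FPKM with a median of 363 in the hypothalamus and at 213 to 485 FPKM with a median of 308 in the pituitary. The tissues overlapped, and its log2 fold of pituitary over hypothalamus was -0.19 (SE 0.15, edgeR adjusted p = 0.262). The direction of that small difference turned to 0.05 without the 5 libraries that stand apart. ENSGALG00000050999 on chromosome 27 was similarly even, with 92.6 to 139 FPKM (median 106) in the hypothalamus and 84.4 to 102 FPKM (median 91.7) in the pituitary. Its log2 fold was -0.22 (SE 0.07, edgeR adjusted p = 0.00597), and the call was lost without the 5 libraries (-0.17, edgeR adjusted p = 0.0684) and in the high RFI libraries alone (-0.08, edgeR adjusted p = 0.436). The other 6 of the 8 most abundant genes were called higher in hypothalamus by more.

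ENSGALG00000041228 on chromosome 8 (21380392 to 21382596, minus strand) had the highest level of any in the hypothalamus. Its FPKM values there were 531, 405, 510, 620 and 501 in the low RFI libraries and 635, 630, 618, 582 and 507 in the high RFI libraries. In the pituitary they were 324, 38.9, 6.06, 18.3 and 16.7 in low RFI and 96.7, 49.2, 19.1, 91.7 and 26.3 in high RFI. All hypothalamus libraries lay above all pituitary libraries, and pituitary low RFI library 1 was far above the other 9. The log2 fold was -3.00 (SE 0.56, edgeR adjusted p = 0.000115), and -4.01 without that library. It starts 1351 bases from HPDL, a gene for a mitochondrial dioxygenase-like protein, in the opposite direction, and HPDL stood at only 3.90 ± 1.18 FPKM in the hypothalamus and 0.637 ± 0.577 FPKM in the pituitary (SD, n = 10 each).

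The remaining 5 of these 8 genes lay close to a protein-coding gene or across one. ENSGALG00000034498 on chromosome 20 lies 1303 bases downstream of STMN3, a stathmin that binds tubulin in neurons, on the same strand. It ranged from 275 to 495 FPKM (median 376) in the hypothalamus and from 28.9 to 227 FPKM (median 57.5) in the pituitary, with a log2 fold of -2.14 (SE 0.34, edgeR adjusted p = 2.12e-05) and of -3.14 without the 5 libraries. ENSGALG00000045548 on Z runs antisense to MRPS27, a mitochondrial ribosome protein, at 177 to 388 FPKM (median 283) against 22.5 to 494 FPKM (median 63.9). The 494 FPKM belong to pituitary low RFI library 2, without which the log2 fold moved from -1.58 (SE 0.42, edgeR adjusted p = 0.00256) to -2.19. In the low RFI libraries alone, which hold that value, it was -1.06 and not called (edgeR adjusted p = 0.248). ENSGALG00000052184 lies 138 bases downstream of PTPRN2, a protein of dense-core secretory granules, and averaged 152 ± 22.8 FPKM in the hypothalamus and 90.3 ± 23.9 FPKM in the pituitary (SD, n = 10 each).

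ENSGALG00000049545 lies 150 bases downstream of TEF, a clock-controlled transcription factor first described in the pituitary of rats. It ranged from 92.0 to 130 FPKM (median 105) in the hypothalamus and from 35.4 to 112 FPKM (median 41.7) in the pituitary, with a log2 fold of -1.08 (SE 0.18, edgeR adjusted p = 3.02e-05). The highest of its pituitary values was again in low RFI library 1. ENSGALG00000037040, 3423 bases downstream of HSPA4L, a heat shock protein, stood at 57.6 to 132 FPKM (median 95.6) against 12.2 to 55.6 FPKM (median 18.7). Its tissues did not overlap, and the log2 fold was -1.94 (SE 0.25, edgeR adjusted p = 1.99e-06).

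The study sampled both tissues of the feed intake axis, and the comparison of pituitary with hypothalamus was made over all 20 libraries with both RFI groups weighted equally. Of 488 genes tested, 162 were called higher in pituitary, beside 38.3% of all 16747 genes tested, and 183 higher in hypothalamus, beside 32.5% of all genes (edgeR, Benjamini-Hochberg adjusted p under 0.05). Together 345 were called, 70.7%, where 70.8% of all genes tested were, so the share called was near the background. The median log2 fold was -0.10, beside 0.07 over all genes. In RNA from whole tissue, fewer cells of a type and less RNA per cell cannot be told apart.

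Large folds were counted next. An absolute log2 fold over 1 among called genes was found for 91 genes higher in pituitary and 122 higher in hypothalamus (43.6%, beside 31.4% of all genes tested), over 2 for 46 and 41 (17.8%, beside 11.7%), and over 3 for 28 and 15 (8.81%, beside 5.12%). Past a log2 fold of 5 lay 12 genes higher in pituitary and 1 higher in hypothalamus (2.66%, beside 1.63%). Genes that passed the level through 1 tissue alone had to differ, and these were 59 through the hypothalamus and 70 through the pituitary, while 364 had a mean of at least 1 FPKM in both. Of the 363 tested among these 364, 31.4% were called with an absolute log2 fold over 1, 7.71% over 2 and 2.48% over 3, beside 23.6%, 5.64% and 1.41% of the 13416 genes of any kind with at least 1 FPKM in both tissues. The libraries of the tissues did not overlap at all for 54 genes called higher in pituitary (11.1% of those tested, beside 10.2% of all genes tested) and for 53 called higher in hypothalamus (10.9%, beside 8.73%).

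**Figure D1:**
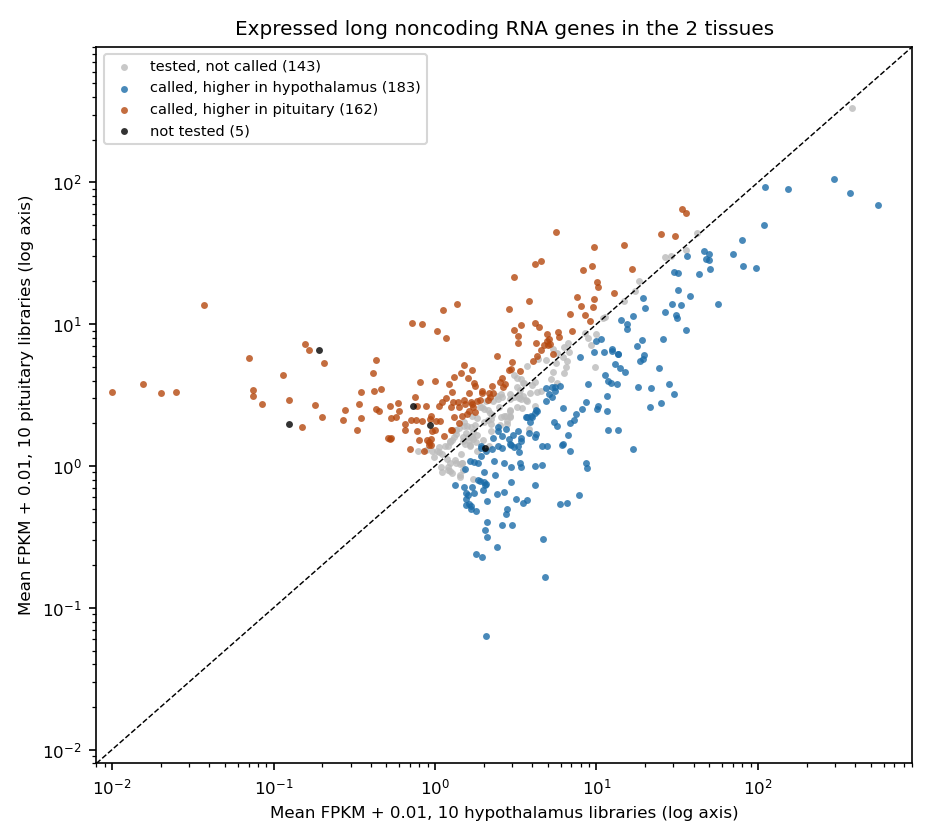
Mean level of each of the 493 genes in the 10 hypothalamus libraries (horizontal axis) and the 10 pituitary libraries (vertical axis), in FPKM plus 0.01 on log axes, coloured by the edgeR call between tissues. The 162 orange genes lie above the dashed line of equal level and reach further from it than the 183 blue genes below it, and the 5 black genes were not tested.

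The low RFI and the high RFI libraries share no sample, and the tissue folds were computed in each. Of 464 genes tested in both, 428 had the same sign. In the low RFI libraries alone 221 of these were called (beside 46.1% of all genes tested there), and 220 of the 221 had the same sign in the high RFI libraries, where 194 of them were also called in that direction. In the high RFI libraries alone 286 were called (beside 63.4% of all genes), and no gene was called in opposite directions. For the counts of shared signs no share over all genes is given, so they do not set these genes apart from others. The genes were also chosen by their mean over the libraries of both RFI groups. Of them 59 passed the level through the hypothalamus alone and 70 through the pituitary alone, and for these the choice itself favours a shared sign.

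Genes higher in pituitary included several with almost no reads in the hypothalamus. ENSGALG00000053996 on chromosome 1 (188531441 to 188534800, plus strand) had 5 counts in all hypothalamus libraries together, all in high RFI library 3, and 2754 counts in the pituitary. Its pituitary FPKM values were 5.67, 18.2, 12.7, 8.13 and 17.8 in low RFI and 19.5, 8.29, 9.22, 4.73 and 31.3 in high RFI. The log2 fold was 9.40 (SE 0.72, edgeR adjusted p = 5.39e-08). Its nearest protein-coding gene, CHORDC1, lies 333423 bases away, the widest gap of any of the 493.

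ENSGALG00000055037 on chromosome 2 lies 5239 bases downstream of TBX20, a T-box transcription factor known from heart development in mice. It had 1 count in the hypothalamus and 764 in the pituitary, a ratio of 667 once library size was taken into account, with a 95% exact interval of 119 to 26390 that covers counting error only. Its pituitary FPKM values were 0.750, 3.69, 7.14, 1.77 and 4.10 in low RFI and 2.59, 4.47, 2.70, 5.16 and 5.43 in high RFI. TBX20 itself averaged 0.0741 ± 0.0734 FPKM in the hypothalamus and 22.3 ± 10.3 FPKM in the pituitary (SD, n = 10 each), and its log2 fold was 8.11 (edgeR adjusted p = 4.21e-11). Both genes were thus at or near 0 in the hypothalamus, and the lowest pituitary value of the noncoding gene was in low RFI library 1.

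ENSGALG00000049918 on chromosome 17, 2381 bases upstream of the transcriptional repressor gene NACC2, had no count in any hypothalamus library and 403 in the pituitary, where it stood at 0.409, 2.20, 4.37, 5.38 and 2.89 FPKM in low RFI and 4.50, 3.74, 3.80, 2.06 and 3.74 FPKM in high RFI. Against the value of 3 counts per hypothalamus library it was at least 11.8-fold higher in pituitary (edgeR adjusted p = 1.55e-06). ENSGALG00000053929 on chromosome 9 had 4 counts in the hypothalamus and 1511 in the pituitary (0.740 to 7.42 FPKM, median 3.15; log2 fold 8.00, SE 0.61, edgeR adjusted p = 5.11e-09). ENSGALG00000048032 on chromosome 2 had 1 count and 248, a ratio of 217 with a 95% exact interval of 38.5 to 8589. It faces AGR3, a protein of the secretory pathway, from 125 bases, and AGR3 was at 0 in all hypothalamus libraries and averaged 92.8 ± 27.9 FPKM in the pituitary.

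ENSGALG00000052144 on chromosome 1 lies 1809 bases upstream of the caspase gene CASP2 and ranged from 0 to 0.168 FPKM in the hypothalamus and from 1.36 to 5.80 FPKM in the pituitary (log2 fold 5.63, SE 0.42, edgeR adjusted p = 4.12e-09). These 6 genes were taken from those whose tissues did not overlap, so by choice every pituitary library lay above every hypothalamus library. On the log2(FPKM + 0.1) scale, which understates the change of low genes, limma gave log2 folds of 4.20 to 6.67 for the same 6.

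Genes higher in hypothalamus were led by ENSGALG00000037064 on chromosome 1 (113943617 to 113966641, plus strand). Its FPKM values were 3.04, 1.21, 3.73, 7.14 and 3.07 in hypothalamus low RFI and 6.27, 9.54, 2.00, 6.12 and 5.45 in hypothalamus high RFI. In the pituitary 7 of the 10 libraries had none, and the others were at 1.08 FPKM in low RFI library 1, 0.151 FPKM in low RFI library 4 and 0.306 FPKM in high RFI library 1. The log2 fold was -5.11 (SE 0.70, edgeR adjusted p = 4.14e-06), -6.35 without pituitary low RFI library 1 and -6.52 without pituitary high RFI library 1. Over the 10 hypothalamus libraries the 3 genes whose log2 level was most like it were CHST2 (Pearson r = 0.894), RAB7B (0.893) and ZNF319 (0.880), each on another chromosome. For ENSGALG00000053996 over the 10 pituitary libraries they were PDSS1 (r = 0.938), WDR81 (0.919) and GSG1 (0.900). These are the best of all genes compared over 10 libraries and are given as a description.

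ENSGALG00000033288 on chromosome 3 stood at 0.484 to 3.44 FPKM (median 2.32) in the hypothalamus and at 0 in 7 pituitary libraries, with at most 0.355 FPKM in low RFI library 1 (log2 fold -4.99, SE 0.57, edgeR adjusted p = 5.26e-07, and -6.41 without that library). ENSGALG00000033566 on chromosome 10, whose nearest protein-coding gene at 75192 bases is the nuclear receptor NR2F2, stood at 3.62 to 12.7 FPKM (median 7.81) against 0 to 3.55 FPKM (median 0.329). ENSGALG00000050550 on chromosome 14 stood at 6.86 to 11.1 FPKM (median 8.62) against 0 to 5.69 FPKM (median 0.210). In both the highest pituitary value was that of low RFI library 1, without which the log2 folds moved from -3.73 to -4.72 and from -3.22 to -4.75.

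That library was the highest of its tissue for 39 of the 53 genes that were higher in hypothalamus without overlap, and for 107 of all 183 called higher in hypothalamus. No share over all genes is given for these counts or the next, so they do not set these genes apart from others. Pituitary high RFI library 4 was the highest for 8 of the 53 and 31 of the 183. The oligodendrocyte marker sum was 7282 FPKM in the first of these libraries, where the pituitary low RFI median was 263 FPKM, and 1043 FPKM in the second, where pituitary high RFI library 1 had the highest of its group with 3466 FPKM. Pituitary low RFI library 1 also had the highest astrocyte sum of its tissue (886 FPKM, next 510 FPKM) and the lowest GH (6982 FPKM). Its GAD1, GBX2, CRH, AVP and SLC17A6 stood at 58.3, 23.0, 20.9, 135 and 146 FPKM. In other pituitary libraries they reached at most 15.9, 0.183, 1.30, 11.4 and 94.5 FPKM. The other hypothalamic neuron markers (NPY, AGRP, CARTPT, HCRT, PMCH, TRH, SIM1 and OTP) were not highest there. The part of other cell types in these folds was not tested. With the 5 libraries that stand apart left out 349 of 489 genes tested were called, 323 of them as with all libraries. Of all genes tested in that fit, 12673 of 17398 were called.

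**Figure D2:**
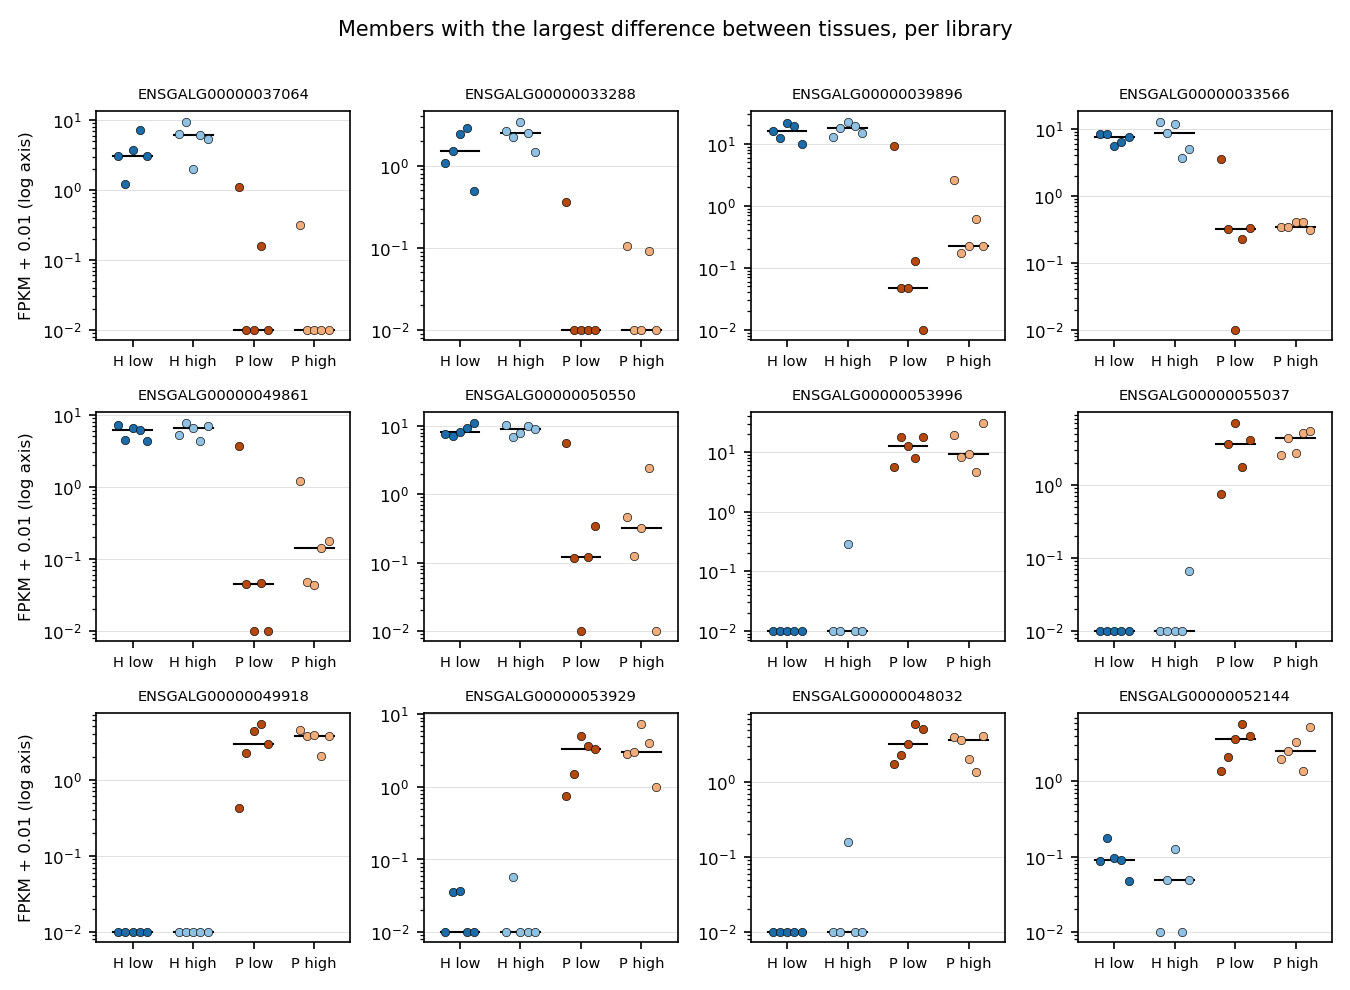
FPKM plus 0.01 (log axis) of the 6 genes with the largest fold in each direction among called genes whose tissues did not overlap. There is 1 point per library, by group (H hypothalamus, P pituitary, low and high RFI), with a line at the group median. Genes higher in hypothalamus come first, and in each of them the highest pituitary point is that of low RFI library 1.

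Genes of the machinery that handles noncoding RNA were measured beside these genes. The background for each list is 38.3% of all genes tested called higher in pituitary and 32.5% higher in hypothalamus. Of 9 paraspeckle and nuclear retention proteins tested, 6 were called higher in pituitary and 1 higher in hypothalamus (median log2 fold 0.22, beside 0.07 for all genes). HNRNPU, a nuclear matrix protein, averaged 95 ± 4.58 FPKM over the hypothalamus libraries and 134.7 ± 13.2 FPKM over the pituitary libraries (SD, n = 10 each; log2 fold 0.53, SE 0.07, edgeR adjusted p = 1.30e-06). Polycomb repressive complex 2 split, with 3 of 6 in each direction. Its catalytic subunit EZH2 was higher in pituitary (log2 fold 1.22, SE 0.14, edgeR adjusted p = 4.25e-07). The alternative catalytic subunit EZH1 was lower there (-0.32, SE 0.09, edgeR adjusted p = 0.00389). EZH2 averaged 3.55 FPKM in hypothalamus and 8.07 FPKM in pituitary, and EZH1 24.5 and 19.2 FPKM. The cofactor JARID2 was also lower in pituitary (-1.19, SE 0.20, edgeR adjusted p = 3.80e-05). Of 8 microRNA maturation proteins 3 were called higher in pituitary and 1 lower. There was no call for DROSHA and DICER1, which cut the precursors, nor for DGCR8. Of 7 nuclear exosome and export proteins 4 were higher and 1 lower. Under median-ratio scaling and under DESeq2 every count was the same. No gene of these lists was called between RFI groups in either tissue, where 0% of all genes tested were.

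The nearest protein-coding gene, by start and end on the same chromosome, was close for most of the 493. It overlapped or lay within 1 kb for 180 genes (36.5%, against 15.9% of the 4632 long noncoding RNA genes under the level) and within 10 kb for 359 (72.8% against 36.5%). The median distance was 2374 bases, against 22509.5 bases under the level. By strand, 134 lay downstream of their neighbour on the same strand, 122 were divergent from it, 92 lay upstream on the same strand, 85 were convergent and 60 overlapped it on the opposite strand. None overlapped its neighbour on the same strand. Within 1 kb, 50 were divergent and 32 lay downstream on the same strand. The sources used here do not say whether reads were counted by strand, so reads of the 60 antisense pairs cannot be told apart. With genes of other kinds included, small RNA genes aside, 117 of the 493 overlapped another gene on the opposite strand. On the same strand 14 did, and reads of these are likewise uncertain. A gene just downstream of another could also hold reads of a longer transcript of its neighbour.

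Genes and neighbours moved in the same direction between tissues more often than not. Both partners were tested in 452 pairs and both called in 247, and 177 of these 247 (71.7%) had the same direction. Among protein-coding genes and their own nearest protein-coding neighbour, 3458 of 6018 pairs did (57.5%). By distance, the same direction was found in 23 of 34 overlapping pairs, 43 of 54 up to 1 kb apart, 70 of 90 at 1 to 10 kb, 34 of 59 at 10 to 100 kb and 7 of 10 beyond. In this order the shares were 67.6%, 79.6%, 77.8%, 57.6% and 70%. For protein-coding pairs they were 62.4%, 59.0%, 56.5%, 53.8% and 50%. The 62.4% holds overlaps on either strand. On opposite strands, as in all 34 overlapping pairs of the noncoding genes, it was 446 of 754 (59.2%). By arrangement, it was found in 55 of 71 pairs with the noncoding gene downstream on the same strand, 33 of 45 with it upstream, 46 of 63 divergent and 20 of 34 convergent pairs. These shares were 77.5%, 73.3%, 73.0% and 58.8%, beside 59.6%, 57.0%, 57.3% and 52.9% for protein-coding pairs. Within 1 kb on the same strand the counts were 14 of 15 downstream and 9 of 9 upstream, beside 63.8% and 64.3% of protein-coding pairs. Of divergent and convergent pairs within 1 kb, 18 of 25 and 2 of 5 had the same direction, beside 58.2% and 52.8%. The pairs are a description without a test, since 71 of the 493 genes share their neighbour with another and the members were chosen by level. Protein-coding pairs were taken per gene, so protein-coding genes nearest to each other enter from both sides.

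**Figure D3:**
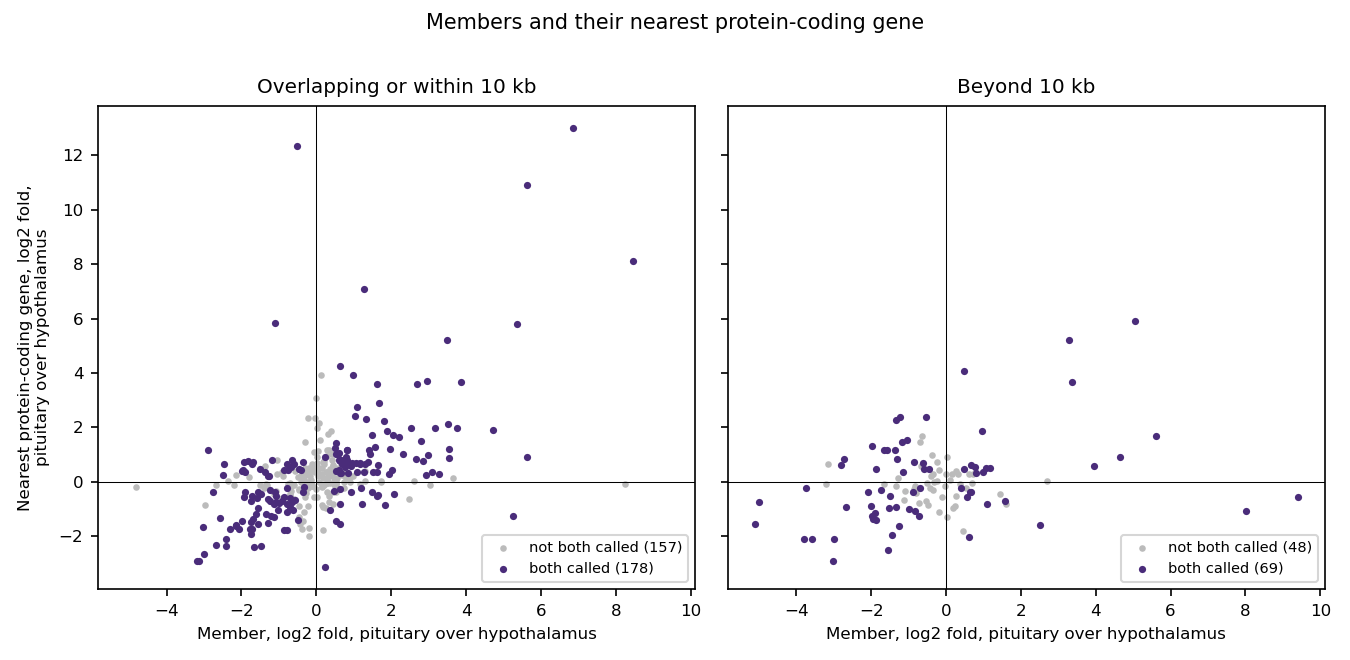
Log2 fold of pituitary over hypothalamus of each gene (horizontal axis) and of its nearest protein-coding gene (vertical axis), for pairs that overlap or lie within 10 kb and for pairs further apart, with purple points where both were called. Of the 178 purple pairs on the left, 136 lie in the lower left and upper right, where both folds have 1 sign.

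Only 4 protein-coding genes were nearest to 3 or more of the 493: POU3F4 and MEF2C and PPARA with 4 each, and POU3F3 with 3. The genes named in this paragraph and the next 2 were chosen after their values were seen, apart from those already described. The 4 genes beside PPARA had log2 folds of -0.34 to 0.72, with 2 called higher in pituitary. POU3F3 and POU3F4 are POU-domain transcription factors of the developing nervous system. All 7 noncoding genes beside them, 2 of which overlap each other, were called higher in hypothalamus, beside 32.5% of all genes tested. Both factors were also called higher there (log2 folds -2.92 and -2.11, edgeR adjusted p = 0.000249 and 2.49e-06). Beside POU3F3 on chromosome 1, ENSGALG00000035027 starts 244 bases downstream and stood at 21.8 to 37.9 FPKM (median 30.5) in the hypothalamus and 0.501 to 14.1 FPKM (median 1.64) in the pituitary. ENSGALG00000047670 stood at 16.5 to 34.3 FPKM (median 27.1) against 0.244 to 10.6 FPKM (median 1.67), and ENSGALG00000054182 at 14.0 to 27.9 FPKM (median 21.6) against 0.155 to 13.7 FPKM (median 1.01). Their log2 folds were -3.19, -3.14 and -3.03, and -4.20, -3.84 and -4.52 without pituitary low RFI library 1, which held the highest pituitary value of each. In the low RFI libraries alone ENSGALG00000054182 was not called (-2.74, edgeR adjusted p = 0.054).

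Beside POU3F4 on chromosome 4, ENSGALG00000039896 (9103864 to 9106821) stood at 9.85 to 22.8 FPKM (median 17.0) in the hypothalamus and at 0 to 9.18 FPKM (median 0.188) in the pituitary. Its log2 fold was -3.79 (SE 0.77, edgeR adjusted p = 0.000273), and -6.37 without pituitary low RFI library 1, which held the 9.18 FPKM. It lies within ENSGALG00000049861 on the same strand, so their reads are uncertain, and that gene stood at 4.23 to 7.69 FPKM against 0 to 3.63 FPKM (log2 fold -3.58, and -6.11 without the same library). With the low RFI libraries alone neither passed (edgeR adjusted p = 0.0779 and 0.0792). ENSGALG00000052520 and ENSGALG00000054566, on the opposite strand, had log2 folds of -2.98 and -2.42, and -3.93 and -3.07 without that library. POU3F4 itself averaged 23.0 ± 5.94 FPKM in the hypothalamus and 5.14 ± 3.24 FPKM in the pituitary (SD, n = 10 each).

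Beside MEF2C, a MADS-box transcription factor of neurons and muscle, on Z the direction depended on the gene. ENSGALG00000046534, divergent at 550 bases, was higher in pituitary (1.58 ± 0.534 against 4.16 ± 0.650 FPKM, log2 fold 1.41, SE 0.19, edgeR adjusted p = 3.93e-06), as was MEF2C (1.18, edgeR adjusted p = 2.82e-06). The other three, ENSGALG00000044563, ENSGALG00000044272 and ENSGALG00000050522, lie together 22733 to 28270 bases away and were higher in hypothalamus, with log2 folds of -1.59, -1.65 and -1.37. In the pituitary direction, ENSGALG00000041015 and ENSGALG00000053769 near SIX3, a homeobox factor of the forebrain, had log2 folds of 3.87 and 3.37 where SIX3 had 3.69. ENSGALG00000047270, convergent at 1286 bases with the pituitary vasotocin receptor gene AVPR1B, averaged 0.148 ± 0.0546 FPKM in the hypothalamus and 7.23 ± 5.22 FPKM in the pituitary (log2 fold 5.62, SE 0.56, edgeR adjusted p = 1.30e-07), and AVPR1B had a log2 fold of 10.90. There were 15 neighbours with at least 2 called noncoding genes, most of them with only 2. No share for other genes grouped in this way is given. For 12 of the 15 all called noncoding genes pointed in 1 direction, which was not always that of the neighbour. NR5A2 and ADAMTS2 had log2 folds of 2.37 and 0.71, while both noncoding genes beside each were called higher in hypothalamus.

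A microRNA gene lay inside 11 of the 493 on the same strand (2.23%, against 31 of 4632 under the level, 0.669%), and 9 more had one within 10 kb only. MicroRNAs are cut from hairpins within longer transcripts and repress messenger RNAs that pair with their seed. The counts are of reads on the host gene, and mature microRNAs were not measured. The highest was ENSGALG00000006584 on chromosome 24 (3388666 to 3396866, plus strand), which holds gga-mir-125b-1, a microRNA abundant in nervous tissue. Its FPKM values were 40.7, 43.6, 43.7, 35.2 and 40.6 in hypothalamus low RFI and 50.1, 42.9, 38.2, 53.9 and 42.8 in hypothalamus high RFI. In the pituitary they were 30.3, 19.3, 21.6, 18.4 and 21.7 in low RFI and 18.4, 23.9, 18.7, 29.7 and 25.4 in high RFI. The tissues did not overlap, and the log2 fold was -0.89 (SE 0.10, edgeR adjusted p = 6.81e-07).

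The next gene upstream on that strand, ENSGALG00000055112 (3214084 to 3384537), holds gga-mir-100 and was also higher in hypothalamus, at 1.75 ± 0.365 against 1.06 ± 0.442 FPKM (SD, n = 10 each; log2 fold -0.69, SE 0.21, edgeR adjusted p = 0.00765). ENSGALG00000040001 on chromosome 1 holds the related cluster of gga-mir-99a, MIRLET7C and gga-mir-125b-2. It stood at 10.997 to 21.7 FPKM (median 13.6) in hypothalamus libraries and 8.45 to 14.2 FPKM (median 10.97) in pituitary libraries, a log2 fold of -0.37 (SE 0.11, edgeR adjusted p = 0.00588) between overlapping tissues. All 3 hosts of these related microRNAs were thus called higher in hypothalamus, beside 32.5% of all genes tested. However, ENSGALG00000040001 was not called in the high RFI libraries alone (edgeR adjusted p = 0.113), nor ENSGALG00000055112 in the low RFI libraries alone (edgeR adjusted p = 0.233). ENSGALG00000055112 was named after its values were seen.

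ENSGALG00000050487 on chromosome 28 (4977596 to 4993209, minus strand) holds gga-mir-7-3. The human gene of the same microRNA is known for its expression in pituitary and pancreatic islets. Its FPKM values were 10.4, 15.4, 31.4, 23.0 and 23.9 in pituitary low RFI and 26.1, 29.5, 24.1, 18.7 and 38.3 in pituitary high RFI. In the hypothalamus they were 5.39, 38.1, 5.67, 4.94 and 5.26 in low RFI and 4.68, 5.89, 3.48, 4.39 and 4.48 in high RFI. Hypothalamus low RFI library 2, at 38.1 FPKM, was just below the highest pituitary library, and the other 9 hypothalamus libraries lay below every pituitary library. The log2 fold was 1.73 (SE 0.35, edgeR adjusted p = 0.000273) and 2.56 without the 5 libraries that stand apart, and in the low RFI libraries alone it was 0.86 and not called (edgeR adjusted p = 0.271). That library is the one with the pineal and choroid plexus markers, whose part in this value was not tested.

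Of the other named hosts, ENSGALG00000032941 on chromosome 3 was higher in hypothalamus at 27.4 to 42.4 FPKM (median 35.4), against a pituitary median of 2.84 FPKM with 43.0 FPKM in high RFI library 4 and 20.6 FPKM in low RFI library 1. Its log2 fold was -2.01 (SE 0.56, edgeR adjusted p = 0.00355), -2.84 without pituitary high RFI library 4 and -4.05 without the 5 libraries. In the high RFI libraries alone it was -1.55 and not called (edgeR adjusted p = 0.0979). ENSGALG00000054594 on chromosome 26, host of gga-mir-135a-3, was higher in pituitary at 5.78 to 20.8 FPKM (median 7.73) against 1.98 to 4.93 FPKM (median 3.18), without overlap (log2 fold 1.58, SE 0.22, edgeR adjusted p = 4.82e-06). ENSGALG00000052658 on chromosome 2, host of gga-mir-6572 and 1092 bases downstream of the microRNA effector gene AGO2, was at 8.12 to 11.8 FPKM against 10.6 to 20.4 FPKM (log2 fold 0.68, SE 0.11, edgeR adjusted p = 2.00e-05). The last 5 hosts were named after their values were seen, and 3 of them were not called: ENSGALG00000050116 (gga-mir-6516), ENSGALG00000029865 and ENSGALG00000040705 (gga-mir-1672), with log2 folds of -0.35, -0.10 and 0.03. The value of ENSGALG00000029865 rests on pituitary low RFI library 2, at 9.35 FPKM where no other pituitary library passed 1.21 FPKM. Without that library its log2 fold was -0.96 and called (edgeR adjusted p = 0.000991).

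Genes of the mir-9 family, microRNAs of neural progenitors and neurons, lay inside or within 10 kb of 3 of the 493, which were chosen for description after their values were seen. ENSGALG00000044272 near MEF2C holds gga-mir-9-2 and stood at 4.74 to 10.3 FPKM (median 7.63) in the hypothalamus and 1.22 to 4.70 FPKM (median 1.87) in the pituitary (log2 fold -1.65, SE 0.25, edgeR adjusted p = 1.11e-05). ENSGALG00000055108 on chromosome 10, within 10 kb of gga-mir-9-3, stood at 19.0 to 29.3 FPKM (median 24.7) against 0.815 to 18.6 FPKM (median 2.31), with a log2 fold of -2.32 (SE 0.48, edgeR adjusted p = 0.000342). ENSGALG00000038755 on chromosome 28, within 10 kb of gga-mir-9-1, stood at 7.79 to 15.3 FPKM (median 11.1) against 0.0556 to 5.96 FPKM (median 0.857), with a log2 fold of -2.68 (SE 0.54, edgeR adjusted p = 0.000234). No library overlapped between tissues in these 3 genes. Pituitary low RFI library 1 and high RFI library 4 held the highest pituitary values in each, and without all 5 libraries that stand apart the log2 folds of the last 2 were -3.67 and -4.12.

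**Figure D4:**
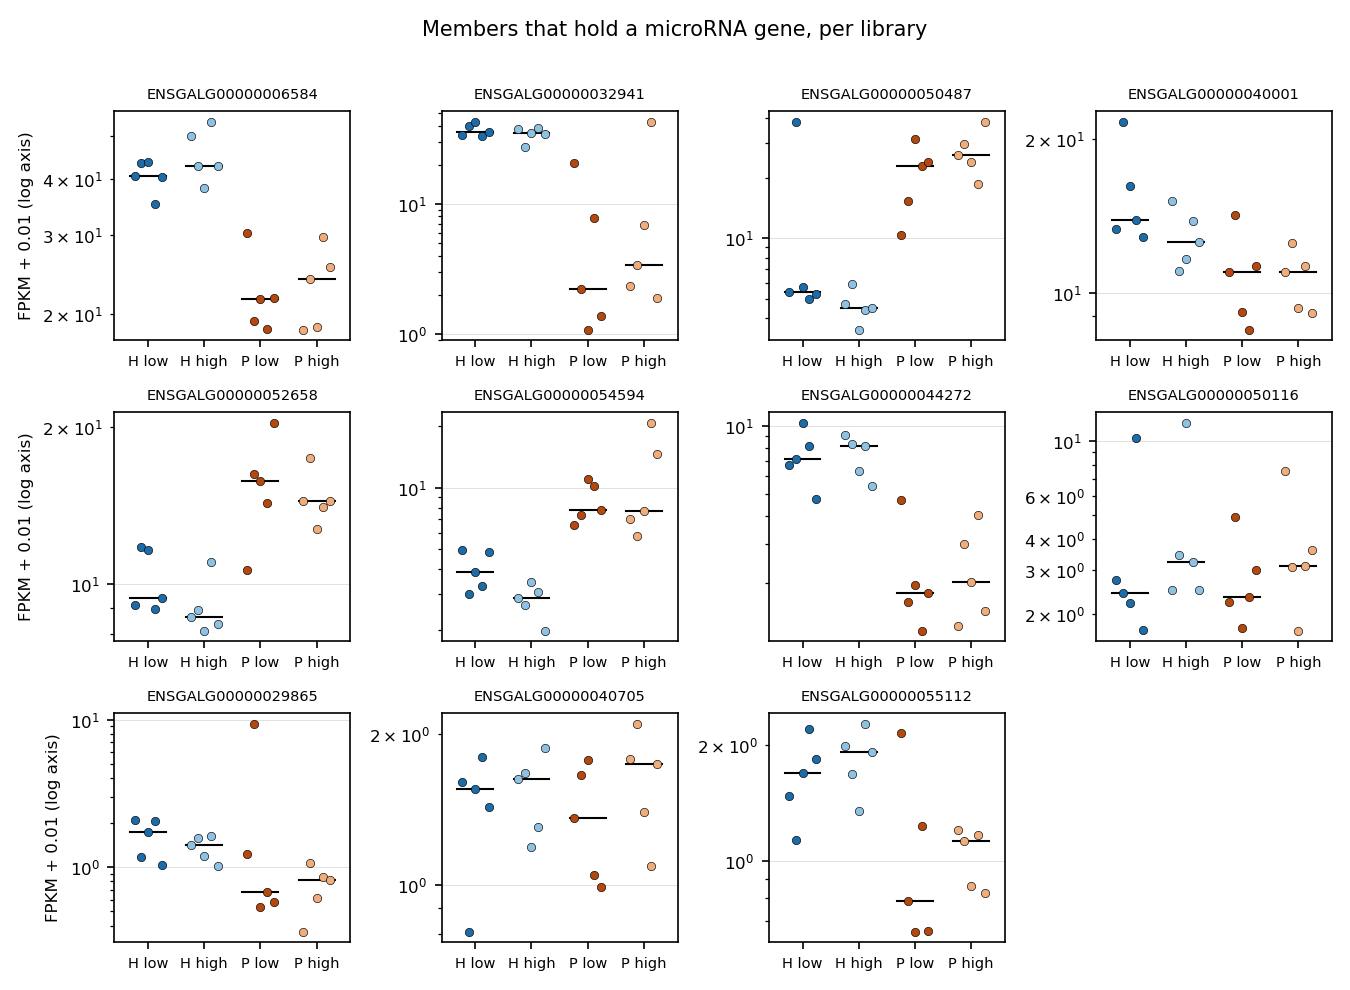
FPKM plus 0.01 (log axis) of the 11 genes that hold a microRNA gene on the same strand, in order of mean level, 1 point per library by group, with a line at the group median. Tissue differences of up to several fold stand beside even genes, and single points stand apart in ENSGALG00000032941, ENSGALG00000050487, ENSGALG00000050116 and ENSGALG00000029865.

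Among genes antisense to a protein-coding gene or divergent from one within 1 kb, the most abundant after ENSGALG00000045548 were even between tissues or variable. ENSGALG00000048583, antisense to the crystallin gene CRYBB1, averaged 35.8 ± 4.55 FPKM in the hypothalamus and 33.6 ± 6.23 FPKM in the pituitary (log2 fold -0.06, SE 0.10, edgeR adjusted p = 0.605). ENSGALG00000053559, antisense to ANGEL1, averaged 26.5 ± 2.64 and 29.8 ± 6.57 FPKM (0.20, SE 0.11, edgeR adjusted p = 0.114; SD, n = 10 each). ENSGALG00000047130, antisense to the kinase gene STK35, ranged from 2.67 to 35.6 FPKM in the hypothalamus and from 5.54 to 101 FPKM in the pituitary. Its call (log2 fold 1.29, SE 0.55, edgeR adjusted p = 0.042) was lost under 15 alternatives, with limma (adjusted p = 0.0582), without the low-count filter, in either RFI group alone, without single libraries of both tissues and without the 5 libraries that stand apart (0.68).

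Low against high RFI was the study's own question, and it was tested in each tissue alone. In the hypothalamus 438 of the 493 genes were tested, and none was called by edgeR, as were 0% of all 15179 genes tested. At an unadjusted p under 0.05 stood 24 genes (5.48%, beside 4.8% of all genes), 13 higher and 11 lower in low RFI, and the smallest adjusted p was 0.964. DESeq2 and limma called none of the 493 either, with 25 and 31 of them at an unadjusted p under 0.05. Over all 15179 genes DESeq2 called 5 and limma 0. In the pituitary 447 were tested, and edgeR called none, as in 0% of all 15786 genes. At an unadjusted p under 0.05 stood 13 genes (2.91%, beside 1.88% of all genes), 6 higher and 7 lower, with a smallest adjusted p of 0.999. DESeq2 and limma called none of the 493 and none of all genes, with 17 and 8 of the 493 at that unadjusted p. For these 2 methods no share over all genes at the unadjusted p is given in either tissue.

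The spread between libraries was wider for these genes than for protein-coding ones, but the 2 sets were not matched for level. Their median levels were 2.69 and 11.03 FPKM, and the part of level in the spread was not tested. The median biological coefficient of variation was 25.8% for hypothalamus and 35.3% for pituitary libraries, against 16.9% and 25.3% for protein-coding genes under the same rule, and the median SE of a log2 fold was 0.25 and 0.32. The RFI groups did not overlap for 4 genes in the hypothalamus (0.913% of those tested, beside 0.83% of all genes) and for 2 in the pituitary (0.447%, beside 0.247%). Of 400 genes tested in both tissues 214 had folds of the same sign (53.5%, beside 56.9% of all genes). Values of the genes with the smallest p in each direction follow, and none of them passed the adjusted threshold.

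In the hypothalamus, ENSGALG00000029644 on chromosome 1 stood at 4.65, 4.86, 4.18, 4.47 and 5.28 FPKM in low RFI and at 4.08, 2.52, 4.06, 2.51 and 2.96 FPKM in high RFI. The groups did not overlap, and the log2 fold was 0.54 (SE 0.16, edgeR adjusted p = 0.964, 0.00643 before adjustment). ENSGALG00000043013, antisense to the epithelial adhesion gene EPCAM, stood at 17.4, 24.8, 13.8, 15.3 and 11.3 FPKM in low and 13.5, 9.26, 10.1, 10.5 and 10.7 FPKM in high RFI. These groups overlapped, the 24.8 FPKM was that of library 2, and the log2 fold was 0.61 (SE 0.20, edgeR adjusted p = 0.964, 0.00855 before adjustment). In the other direction, ENSGALG00000037717 on chromosome 18 stood at 53.1, 39.6, 56.6, 56.3 and 48.5 FPKM in low and 67.7, 58.3, 62.4, 61.3 and 60.9 FPKM in high RFI, without overlap. Its log2 fold was -0.29 (SE 0.09, edgeR adjusted p = 0.964, 0.00857 before adjustment). ENSGALG00000053970 on chromosome 22 stood at 11.9 to 19.2 FPKM in low and 18.7 to 32.3 FPKM in high RFI, overlapping by 1 library on each side (log2 fold -0.56, SE 0.17, edgeR adjusted p = 0.964, 0.00547 before adjustment).

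In the pituitary, ENSGALG00000053934 on chromosome 6 stood at 1.23, 1.23, 1.76, 0.964 and 1.48 FPKM in low RFI and 2.53, 1.76, 2.19, 1.97 and 2.71 FPKM in high RFI. Its log2 fold was -0.74 (SE 0.22, edgeR adjusted p = 0.999, 0.00692 before adjustment). ENSGALG00000032816 on chromosome 19 stood at 8.08, 4.63, 9.69, 8.26 and 5.36 FPKM in low and 8.19, 26.3, 20.7, 33.5 and 9.66 FPKM in high RFI. Its groups overlapped, its log2 fold was -1.45 (SE 0.42, edgeR adjusted p = 0.999, 0.00537 before adjustment), and in the hypothalamus it was -0.79 (edgeR adjusted p = 0.964, 0.0461 before adjustment). The genes of smallest p that were higher in low RFI also overlapped. ENSGALG00000052990 stood at 0.576, 1.64, 1.28, 17.4 and 5.47 FPKM in low and 0.872, 1.14, 0.234, 1.38 and 0.706 FPKM in high RFI, and its log2 fold of 2.58 (SE 0.89, edgeR adjusted p = 0.999, 0.0159 before adjustment) was 1.35 without low RFI library 4. ENSGALG00000039246 had a log2 fold of 1.198 (SE 0.49, edgeR adjusted p = 0.999, 0.0335 before adjustment), and 0.42 without the 4 pituitary libraries that stand apart.

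The difference of the RFI fold between tissues was tested for 488 genes, and edgeR called none, as in 0% of all genes tested. At an unadjusted p under 0.05 stood 14 genes (2.87%, beside 2.34% of all genes). DESeq2 and limma called none of the 488, with 17 and 8 at that unadjusted p, for which no share over all genes is given. Over all 16747 genes DESeq2 called 2 and limma 0. ENSGALG00000050863 on chromosome 7, which lies 287 bases upstream of GTF3C3, a subunit of a transcription factor for RNA polymerase III, had the smallest p. It stood at 1.87, 2.41, 2.04, 2.11 and 1.84 FPKM in hypothalamus low RFI and at 1.92, 1.86, 0.697, 0.799 and 1.33 FPKM in hypothalamus high RFI. In the pituitary it stood at 2.38, 2.17, 4.64, 5.53 and 3.09 FPKM in low and at 4.36, 6.18, 5.38, 8.85 and 5.18 FPKM in high RFI. The groups overlapped in both tissues, with the log2 fold at 0.63 and -0.76 and their difference at -1.38 (SE 0.42, edgeR adjusted p = 0.99991, 0.00392 before adjustment).

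The other named differences rested on single libraries or were small. The gga-mir-7-3 host ENSGALG00000050487 had a difference of -1.76 (SE 0.69, edgeR adjusted p = 0.99991, 0.0203 before adjustment), which was -0.59 without hypothalamus low RFI library 2. ENSGALG00000054062 on chromosome 10 had 1.72 (SE 0.65, edgeR adjusted p = 0.99991, 0.0162 before adjustment), which was 0.93 without pituitary low RFI library 1. ENSGALG00000054607, antisense to the zinc finger gene MECOM, had 0.67 (SE 0.25, edgeR adjusted p = 0.99991, 0.0143 before adjustment). It stood at 2.70 to 4.35 FPKM in hypothalamus low RFI and 3.07 to 4.94 FPKM in high RFI, and at 3.31 to 4.50 FPKM in pituitary low RFI and 2.19 to 3.56 FPKM in high RFI.

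Several of the 493 genes stood out in 1 library of a tissue, and no share over all genes is given beside these counts. In the hypothalamus the highest library was over 3 times the next for 9 genes, each library counted as at least the value of 3 counts, and for all 9 it was low RFI library 2. ENSGALG00000055016 on chromosome 3 stood at 59.0 FPKM there and at 3.04 to 5.72 FPKM in the other 9, and ENSGALG00000051767 on chromosome 24 at 41.0 FPKM against 2.10 to 4.34 FPKM. The level of the second in the other hypothalamus libraries was below every pituitary library (5.01 to 7.52 FPKM), so its log2 fold between tissues was 0.19 with all libraries and not called, and 1.14 without that library (edgeR adjusted p = 1.88e-06). That of the first turned from -0.67 to 0.25, neither called.

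In the pituitary 32 genes had such a library, which was low RFI library 1 for 12, low RFI library 2 for 9, low RFI library 4 for 7 and high RFI library 4 for 4. ENSGALG00000045967 on chromosome 1 stood at 61.9 FPKM in low RFI library 4, and no other of the 20 libraries passed 0.802 FPKM. ENSGALG00000047342 on chromosome 2 stood at 24.4 FPKM in the same library and at 5.22 FPKM in hypothalamus low RFI library 2, and at most 0.679 FPKM elsewhere. Both passed the level through these values and were not tested, as too few libraries held enough counts. The 5 libraries that lead these genes are those that stand apart by markers of other cell types, whose part in the values was not tested.

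**Figure D5:**
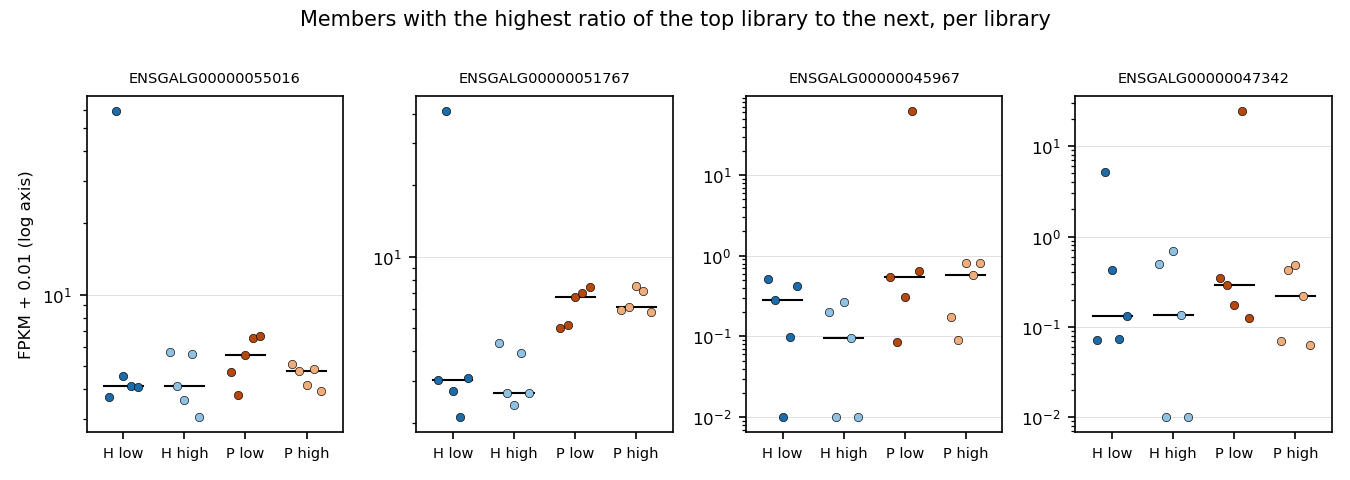
FPKM plus 0.01 (log axis) of the 4 genes with the highest ratio of the top library to the next in a tissue, 1 point per library by group, with a line at the group median. A single point of the low RFI group lies far above the others, hypothalamus low RFI library 2 in the first pair and pituitary low RFI library 4 in the second pair.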

How the data were processed

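RNA-seq of 20 libraries of pooled RNA was read from the deposited table, which holds raw read counts and FPKM values for each gene and library. Per the submitters' processing notes, reads were aligned with HISAT2 2.0.5 to GRCg6a and DESeq2 1.20.0 was used. For the counting tool, its strand setting and the annotation release, nothing is given in the sources used here. The deposited FPKM values equal the count over the listed gene length and 1 library size per column, with the library sizes proportional to median-ratio size factors, to a largest relative deviation of 5.33e-15.

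Counts were tested with edgeR 4.0.16 in R 4.3.3 (TMM scaling, filterByExpr, robust quasi-likelihood fits) over all genes that passed the filter, with Benjamini-Hochberg adjustment over all of them and a threshold of 0.05. Pituitary against hypothalamus and the tissue difference of the RFI effect used all 20 libraries, and low against high RFI the 10 libraries of 1 tissue. Fits were tested on simulated data. The alternatives were DESeq2 1.42.0, median-ratio scaling, no low-count filter, limma 3.58.1 on log2(FPKM + 0.1), a replicate block, the libraries of 1 RFI group, and leaving out each library or the 5 that stand apart. FPKM served for levels, with SD over libraries, and intervals and floors (3 counts) cover counting error only.

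The genes, the lists, the alternatives and the 5 libraries were chosen with earlier results of these data known. Named genes were the 8 of highest mean, the 6 of largest fold in each direction whose tissues did not overlap, the 2 of smallest p in each direction for RFI and its tissue difference, the 6 highest microRNA hosts, the 4 highest antisense or close divergent genes, the 2 of highest ratio of the top to the next library in each tissue, and their nearest protein-coding genes. Of 21 long noncoding RNA symbols looked for, 0 were in the table. A few results on single genes are not reported here.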

Additional observations from a re-analysis of the deposited data

Results flagged for a closer look

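A library far from the others of its group of 5 was seen in 37 of 217 groups tested by Dixon's criterion at 95%. Some of the genes were named for a single high library or after their values were seen. The count can therefore not be set against a chance rate. Groups with a mean under 1 FPKM were not tested, and no cause was tested.

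Pituitary low RFI library 1 was most often the far one, and its values were 324 FPKM for ENSGALG00000041228, 112 FPKM for ENSGALG00000049545, 33.6 FPKM for ENSGALG00000037717, 30.3 FPKM for ENSGALG00000006584 and 14.1 FPKM for ENSGALG00000035027. They were 13.8 FPKM for ENSGALG00000043013, 13.7 FPKM for ENSGALG00000054182, 13.3 FPKM for ENSGALG00000055108, 10.6 FPKM for ENSGALG00000047670 and 9.18 FPKM for ENSGALG00000039896. They were 5.96 FPKM for ENSGALG00000038755, 5.69 FPKM for ENSGALG00000050550, 4.87 FPKM for ENSGALG00000050522 and 4.70 FPKM for ENSGALG00000044272.

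Pituitary high RFI library 4 stood apart at 143 FPKM for ENSGALG00000034498, 101 FPKM for ENSGALG00000047130, 65.0 FPKM for ENSGALG00000049545, 43.0 FPKM for ENSGALG00000032941 and 18.6 FPKM for ENSGALG00000055108. The same library stood apart at 6.08 FPKM for ENSGALG00000035027, 5.96 FPKM for ENSGALG00000038755 and 3.70 FPKM for ENSGALG00000029644. Pituitary low RFI library 4 did so at 87.2 FPKM for ENSGALG00000047130, 61.9 FPKM for ENSGALG00000045967 and 24.4 FPKM for ENSGALG00000047342. Pituitary low RFI library 2 did so at 494 FPKM for ENSGALG00000045548 and 9.35 FPKM for ENSGALG00000029865.

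Hypothalamus low RFI library 2 stood apart at 198 FPKM for ENSGALG00000052184, 59.0 FPKM for ENSGALG00000055016, 41.0 FPKM for ENSGALG00000051767, 38.1 FPKM for ENSGALG00000050487 and 5.22 FPKM for ENSGALG00000047342. Other hypothalamus libraries stood apart for 4 genes. ENSGALG00000050116 was at 10.3 FPKM in low RFI library 4 and at 11.8 FPKM in high RFI library 3, ENSGALG00000052658 at 11.02 FPKM in high RFI library 4, and ENSGALG00000044563 at 10.5 FPKM in low RFI library 3. The remaining value was the lowest of its group, 21.8 FPKM for ENSGALG00000035027 in hypothalamus high RFI library 5.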

How the results depend on the processing

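Between tissues 345 of 488 genes tested were called, beside 70.8% of all genes. With the low RFI libraries only, which hold 4 of the 5 libraries that stand apart, 222 of 468 were called, beside 46.1% of all genes. The cause was not tested. The other alternatives gave 293 of 477 (high RFI libraries only, beside 63.4% of all genes) to 351 of 488 (limma, beside 11916 of all 16747 genes). With 1 library left out 332 to 355 were called, where 11576 to 12341 of all genes tested were. Low against high RFI in each tissue and the tissue difference stayed at 0 calls among these genes under every alternative run. Over all genes DESeq2 called 5 in the hypothalamus and 2 in the tissue difference. Pairs called in the same direction numbered 177 of 247. They were 136 of 178 among pairs that overlap or lie within 10 kb, and 182 of 251 under median-ratio scaling. With the nearest protein-coding gene of at least 1 FPKM they were 189 of 268. Of the fold changes between tissues of single named genes, 1675 alternative values kept their direction and call, 51 lost the call, 8 gained it and 19, in 7 genes, changed sign. The cause of these was not tested. The sign changed for ENSGALG00000048488 to 0.0055 with high RFI libraries only and 0.0455 without the 5 libraries that stand apart, for ENSGALG00000054607 to 0.135 and for ENSGALG00000051767 to -0.675 with low RFI libraries only, and for ENSGALG00000050116 to 0.0257 without hypothalamus low RFI library 4 (-0.548 to 0.0257 over all libraries left out in turn). It changed for ENSGALG00000055016 to 0.0884 with high RFI libraries only, 0.251 without hypothalamus low RFI library 2 (range -0.813 to 0.251) and 0.329 without the 5 libraries. It changed for ENSGALG00000029865 to 0.651 with low RFI libraries only and to 0.0166, 0.0227 and 0.0253 without pituitary low RFI library 4, 5 or 3 (range -0.963 to 0.0253). It changed for ENSGALG00000040705 to -0.0325 with low RFI libraries only and below 0 without any 1 of 6 libraries (range -0.0514 to 0.0889). No gene with a sign change was called with all libraries.

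The replicate numbers share no stated origin, and not every same-numbered pair had a correlation of deviations over 0.1, so they were not taken to pair the libraries. The correlations ran from -0.0811 to 0.356 between the pituitary RFI groups (3 of 5 over 0.1, mean 0.140 against -0.0211 for other numbers) and from -0.301 to 0.248 in the other 3 group pairs, and at most 1 of 5 libraries matched its own number best. With the number as a replicate block 330 of 488 genes were called between tissues, beside 11708 of all 16747 genes tested, and 0 in the 3 RFI comparisons. Of the 493, 5 did not pass the low-count filter between tissues, 55 in the hypothalamus alone and 46 in the pituitary alone. The part of depth in this was not tested.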
